A study of Mus musculus with 4 samples.

Results

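The comparison of injured with sham-operated wild type kidney asks which transcripts differ after ischemia and reperfusion when Nlrc5 is intact. It used 2 of the 4 arrays of the series, WT_sham and WT_IR, taken by their labelled group. The sham group was kidney of C57BL/6 wild type at 8 weeks of age after a sham operation, and the injured group kidney of C57BL/6 wild type, also 8 weeks old, after 30 min of ischemia of both kidneys and then reperfusion. The title of the injured sample and the series design put reperfusion at 48 h, whereas the sample descriptions speak of 24 h, and the difference between these labels could not be settled. The remaining arrays came from mice of the same strain and age labelled NLRC5-/-, with the same operations. Total RNA from kidney was labelled with a single dye and hybridised to 1 array per group, so no difference below has a replicate check or a p-value. How many animals gave RNA to each array is not given in the sources used here.

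Ischemia followed by reperfusion injures the tubule of the kidney, above all the proximal tubule, whose cells reabsorb filtered solutes and depend on mitochondrial respiration. Surviving tubule cells are known to lose transport proteins, express injury proteins such as the lipocalin Lcn2 and the receptor Havcr1, enter the cell cycle and restore the epithelium. Immune cells enter the tissue, and the small vessels around the tubules can be lost.

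The injured array was the dimmer of the pair. The 75th percentile of its processed signal was 177, against 446 for sham, and 67.3% of its probes were well above background, against 71.6%. Levels below are log2 of signal over each array's own 75th percentile, which sets that difference in brightness aside. The 8 adenoviral spike-in controls above background on every array went the other way, with a median unscaled difference of 0.575 (0.214 to 2.46), while kidney probes had a median unscaled difference of -1.30. Scaled to these controls, all genes would stand 1.91 lower in the injured kidney, so that 258 genes would be at least 2-fold higher and 13826 at least 2-fold lower. Every higher or lower below is therefore relative to the bulk of the transcripts on the array. Both arrays lay on the same slide in the same scan. Both gave signal for the Y-linked genes Ddx3y, Eif2s3y, Kdm5d and Uty, and neither was above background for Xist. Among 195 probes printed 10 times, the log2 difference between single spots of these arrays had an SD of 0.26, which was 0.40 in the dimmest and 0.12 in the brightest of them. Differences between animals are not part of these SDs. The arrays labelled NLRC5-/- lay on another slide in another scan, and the sham array among them gave signal for Xist and not for the Y-linked genes. Where that sham array serves as reference below, genotype, slide, scan and this Xist pattern cannot be told apart.

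Of 20867 named genes, 16527 were well above background on at least 1 of the arrays. At least 2-fold higher in injured kidney were 2393 of them (14.5%), and at least 2-fold lower were 2091 (12.7%), together 4484 (27.1%). The other 12043 genes lay within 2-fold. By at least 4-fold, 685 genes were higher and 523 lower, and by at least 8-fold 233 were higher and 164 lower. Of the 16527, 1158 were above background in sham alone and 427 in injured alone. Of 685 genes called higher that had several measured probes, every probe was at least 2-fold higher in 232 and above 0 in 488. Of 638 such genes called lower, every probe was at least 2-fold lower in 248 and below 0 in 478. Different probes of a gene had an SD of 0.69 between them over 6125 genes, so other probes are given beside most named genes where any of them stands apart by more than that. Of the 1495 dimmest genes measured on both arrays 340 were higher and 65 lower. For genes above background on 1 array the difference is a bound, taken against the gene's own signal on the array that did not detect it or the lowest signal counted as above background there, whichever is higher, and is written "at least". The same kind of bound stands, without those words, behind 1 or more of the other-probe values given for Sox9, Cd44, Anxa3, Hmox1, Slc34a2, Cenph, Slc12a1, Slc22a8, Tgfa, Lifr, Ceacam1, Col3a1, Rsad2, Jchain, Ddx58 and Igh-VJ558. Where the value used for the undetected array was the higher, the difference was set to 0. The lowest signal counted was -5.48 in sham and -4.70 in injured kidney. By these bounds 386 of the 427 genes detected in injured alone were called higher, and 238 of the 1158 in sham alone lower. With own signal in place of bounds 2431 genes were higher and 2472 lower.

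**Figure D1:**
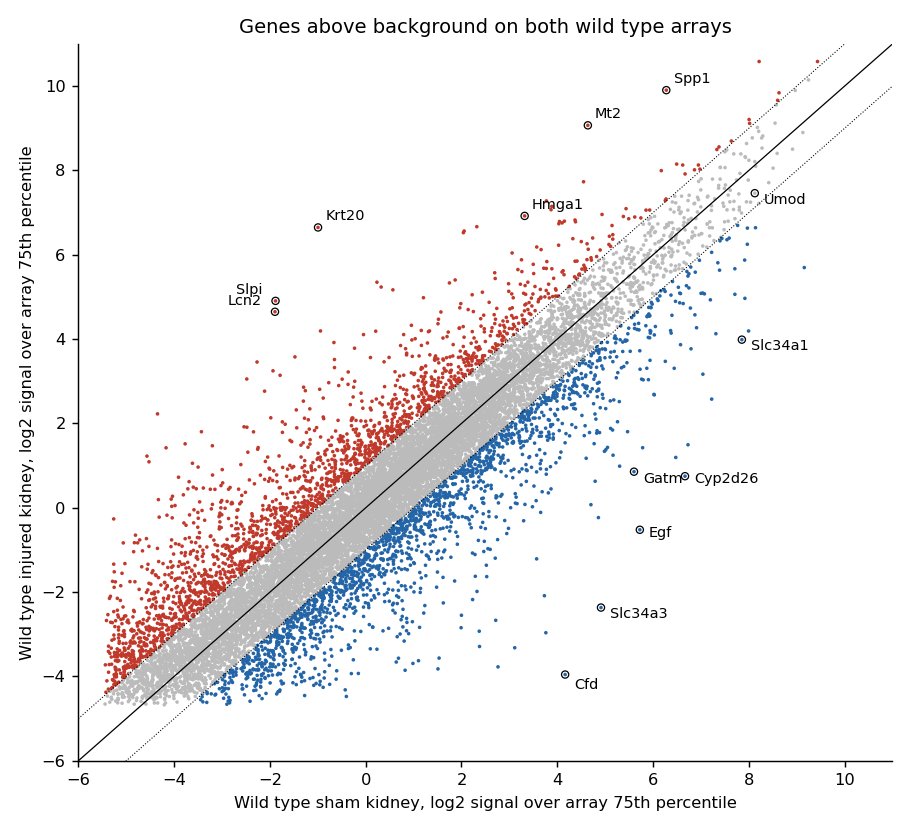
Level in injured kidney (vertical axis) against level in sham kidney (horizontal axis), both log2 signal over the array's 75th percentile, for the 14942 genes above background on both wild type arrays. Red points are at least 2-fold higher and blue points at least 2-fold lower in injured kidney, the solid line marks equal levels, and the dotted lines mark 2-fold. Krt20, Slpi and Lcn2 lie farthest above the line among the labelled genes, and Cfd, Slc34a3 and Egf farthest below it.

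The largest increases belonged to genes of epithelial injury and to a secreted protease inhibitor. Krt20, a keratin of the simple epithelium, read -0.99 in sham and 6.65 in injured kidney, a difference of 7.64. Slpi, a secreted inhibitor of leukocyte proteases, read -1.88 and 4.91, 111-fold apart. Lcn2, the lipocalin that binds bacterial iron carriers, read -1.89 and 4.65, a difference of 6.54. In each of these genes the sham level was low and the injured level lay above that array's 75th percentile. Sprr2f, a small proline-rich protein of the cornified envelope, was not above background in sham and read 3.73 in injured kidney, at least 554-fold higher. Crct1, a cysteine-rich gene of the same skin gene complex, read 3.15 in injured kidney and was at least 396-fold higher. Of 9 described Sprr genes 6 were at least 2-fold higher and none was 2-fold lower, with Sprr2g at 2.84 and Sprr1a at 2.68. All 8 described stefin genes, which encode cysteine protease inhibitors, were at least 2-fold higher, with a median difference of 2.50 and Stfa1 at least 9.83-fold higher. A gene above background in injured kidney alone, as Sprr2f and Stfa1 were, could not be counted as lower. Likewise, here and below, a gene above background in sham alone could not be counted as higher. The groups of genes named by a shared symbol, here and below, were picked after their values were seen.

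Many of the most extreme increases came from probes with a run of purines, and these are marked wherever they are named. Of the 100 probes with the largest increase 58 held an alternating A and G run of at least 6 bases or an unbroken purine run of at least 10, against 7 of the 100 with the largest decrease and 11.1% of all 30434 probes described. Of these repeat probes 27.5% were at least 2-fold higher and 7.31% lower, whereas of the other 27057 probes 13.3% were higher and 12.2% lower. Probes with AGAGAGAG had a median difference of 2.81 (67 probes), while those with CTCTCTCT had a median of -0.22 (60 probes). The share of probes at least 2-fold higher grew from 11% at a longest purine run of 4 bases to 23.6% at 10 and 57.7% at 17 or more. Where a gene had probes of both kinds, the repeat probe often stood alone. Cdcp1, for one, also had a probe with an alternating run of 6 bases, which gave -0.40. Among 52 genes with a probe holding an alternating run of 8 or more, that probe had a median difference of 1.47 and the other probes 0.24, with 35 and 10 genes at least 2-fold higher and 6 by both. The part of the repeats in the results was not tested. The probe stretches below, 30 of 60 bases each from the deposited array files with the repeat in capitals and the coordinates of the whole probe, set repeat probes beside another probe of the same gene and beside the probes of Krt20 and Lcn2, which have none.
Cdcp1, chr9:123090891-123090950 (mm9), difference 4.91: acaggatcaAGAGAGAGAGAGtctgcaagt
Cdcp1, chr9:123081759-123081818 (mm9), difference 0.49: catgtatgtatctcttactcaataaggggt
Myo1e, chr9:70215440-70215499 (mm9), difference 5.12: gatGAGAGAGAGAaagtacgatggttacgc
Myo1e, chr9:70247354-70247413 (mm9), difference 0.40: tgtacccattcatgaaggtaggttttatta
Lifr, chr15:7135674-7135733 (mm9), difference 5.06: tttcagaaagGAGAGAGAGAtacgcccaag
Lifr, chr15:7141059-7141118 (mm9), difference 0.12: caattcttgattcctcctaaagacgaagac
Krt20, chr11:99289776-99289835 (mm9), difference 7.64: aaggtgattgacatggggttcagttaagag
Lcn2, chr2:32241037-32241281 (mm9), difference 6.54: gacttctgaaaacaagcaatacttcaaaat

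**Figure D2:**
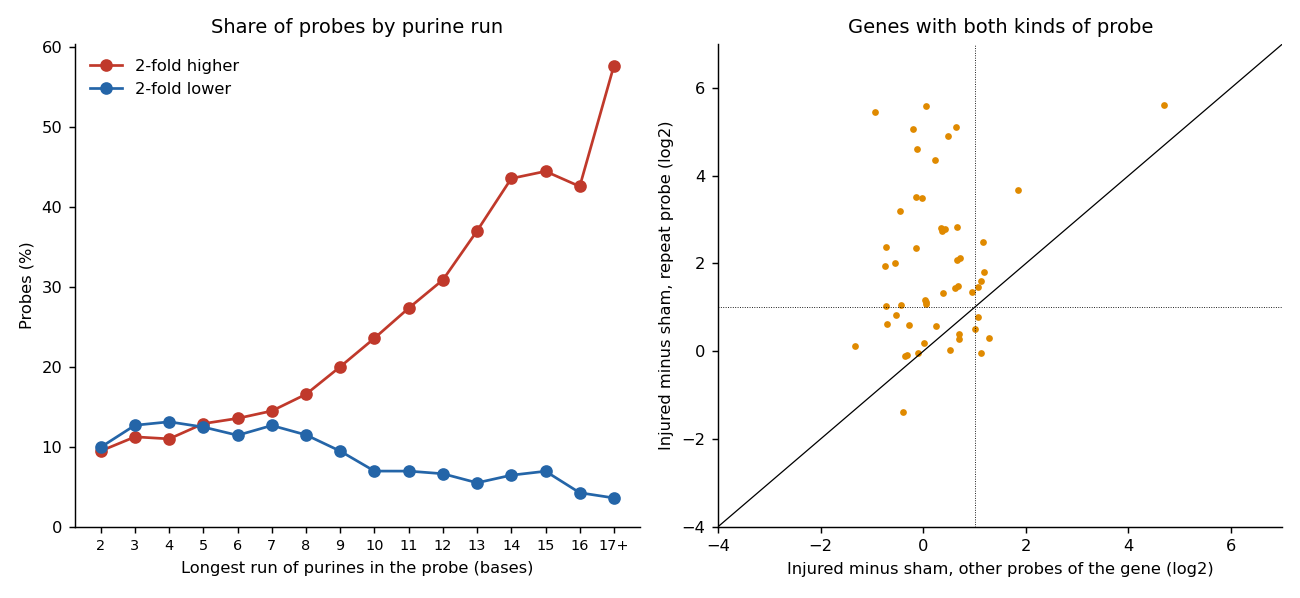
Left, percent of probes at least 2-fold higher (red) or lower (blue) in wild type injured kidney, by the longest run of purines in the probe in bases, with runs of 17 or more joined. Right, difference between injured and sham (log2) by the repeat probe (vertical axis) and by the median of the other probes (horizontal axis) for 52 genes with an alternating run of 8 or more, where the solid line marks equal values and the dotted lines 2-fold. The red share climbs with the run, and most points in the right panel lie above the line.

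Fgf2 (5.79), Dmrtb1 (5.59), Tgm5 (5.18), Usp29 (5.14), Myo1e (5.12), Lifr (5.06), Cdcp1 (4.91), Arg2 (4.88) and Anxa7 (4.6) were all read by repeat probes. For Dmrtb1 the other probe gave 0.06, and for Anxa7 a probe without a repeat gave -0.12. Lifr, the receptor of leukemia inhibitory factor, had other probes from -2.28 to 0.12. Without repeat probes 15377 genes were described, of which 1993 (13%) were at least 2-fold higher and 2017 (13.1%) lower. With all probes kept, median scaling gave 2090 higher and 2449 lower genes, and quantile normalization 2169 and 2162. The 75th percentile over probes above background on both arrays gave 2425 and 2066. Which direction held more genes therefore depended on the scaling too, and on the use of bounds. Sox9, a transcription factor of regenerating tubule, was also read by a repeat probe at 5.62, but a probe without a repeat read -5.09 in sham and -0.40 in injured kidney, a difference of 4.69, and the last probe was at least 1.90 higher. Clec5a, a myeloid receptor, stood at 1.97 by its repeat probe and at 5.27 by the other. The counts of gene groups below use the brightest probe of each gene, and where leaving out the repeat probes changed a median by more than the technical SD of 0.26 that value is given too.

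Genes known to mark injured tubule were higher as a group. Of 16 in the list 11 were at least 2-fold higher and 1 lower, with a median difference of 2.98, against a median of 0 over all genes. Spp1, the matrix protein osteopontin, read 6.28 in sham and 9.90 in injured kidney. Clu, the chaperone clusterin, read 3.77 and 7.28, and the lipid droplet protein gene Plin2 read 3.87 and 7.07. These sham levels were already above the array's 75th percentile, and each was at least 9.18-fold higher in injured kidney. Havcr1, the phagocytic receptor KIM-1 of injured tubule, read 0.38 and 3.46 by its brightest probe, a difference of 3.08, and its other probe, which holds a purine repeat, gave 6.21. Timp2 was the member that stood lower, at -1.24. Gdf15, a stress-induced hormone, read 0.21 and 4.19, and Hmga1, a chromatin protein of growing cells, read 3.32 and 6.92. Lrg1, a glycoprotein of the acute phase, differed by 4.15. Cd44, the hyaluronan receptor, stood at 2.89 by a repeat probe and at 1.34 and 2.48 by the others, Vcam1, an adhesion molecule of injured tubule, at 0.72 and 1.5 by its 2 measured probes, and the intermediate filament vimentin, Vim, at 0.30.

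Calcium-binding S100 proteins and annexins, which act at membranes, were higher in 7 of 17 cases and lower in 1. Anxa3 read 1.75 and 5.33, with 1.18 by its other probe, and Anxa2 read 0.49 and 3.57, with 2.62 by its other probe. S100a6 differed by 2.45, S100a11 by 2.47 and S100a10, the partner of Anxa2, by 2.61 by a repeat probe.

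Epithelial keratins and the cytoskeleton were higher. Besides Krt20, the pair Krt8 and Krt18, which form the filaments of simple epithelium, differed by 2.65 and 2.63, and 4 of 7 keratins in the list were at least 2-fold higher. Of 23 genes of actin, tubulin and intermediate filaments 13 were higher and none was lower, with a median of 1.14. Among them were Tpm4, a tropomyosin, at 2.07 and Actb at 1.38. The tubulin gene Tubb6 stood at 2.48, and its other probe at -0.74. Claudins, which set the selectivity of tight junctions, split. Cldn3 read -0.26 in sham and 2.63 in injured kidney and Cldn4 read -2.80 and -0.42 by a repeat probe, whereas Cldn2, the leaky claudin of the proximal tubule, read 3.57 and 1.25. In that list 7 of 17 genes were higher and 5 lower. Of 16 cadherins (genes of the Cdh symbol) 11 were at least 2-fold higher and 2 lower, and 4 of the 16 were read by repeat probes.

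**Figure D3:**
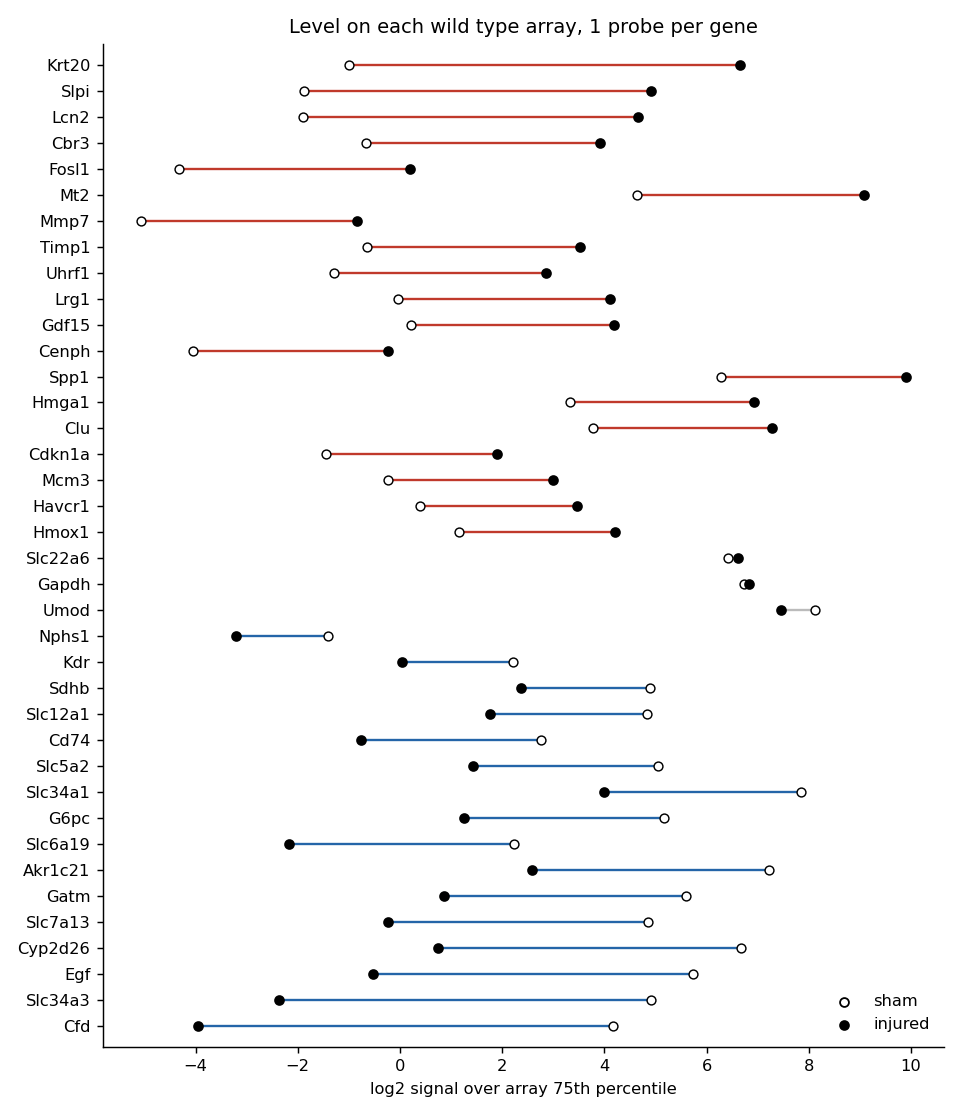
Level on the sham array (open circles) and on the injured array (filled circles) for 38 genes, each read by 1 probe, as log2 signal over the array's 75th percentile. Red lines join genes at least 2-fold higher in injured kidney, blue lines genes at least 2-fold lower, and grey lines genes within 2-fold. Circles are to be compared along a row, since levels of different probes are not on a common scale.

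Immediate early genes, the first transcription factors induced by growth and stress signals, were higher in 17 of 20 cases and at least 2-fold lower in none, with a median of 2.21. Fosl1, a partner of Jun in the AP-1 factor, read -4.33 and 0.19, a difference of 4.52. Egr1 and Atf3 differed by 3.29 and 3.28, and the other AP-1 genes Fos and Jun by 2.26 and 2.24. Myc read -1.31 and 1.54, and its 2 other probes gave 1.71 and 2.88. Klf6, a zinc finger factor of injured tubule, differed by 2.86. Dusp1, the phosphatase that ends MAP kinase signals and is itself an immediate early gene, stood at -0.80. Dusp1, Klf2 (-0.01), a factor of quiescent endothelium, and Fosb (0.49) were the members within 2-fold.

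The ligands of the EGF receptor went in opposite directions. Egf, made by the thick ascending limb and the distal convoluted tubule, read 5.72 and -0.52, 75.9-fold lower in injured kidney. Areg, a ligand made by injured epithelium, was not above background in sham and read -2.24 in injured kidney, at least 9.41-fold higher. Hbegf differed by 2.08 (a repeat probe) and Tgfa by 2.67, with the other Tgfa probe at -0.73. The receptor Egfr itself stood at 0.18, with other probes from -1.37 to 0.87.

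Secreted matrix proteases and their inhibitors were higher in 10 of 16 cases and lower in 2. Mmp7, the matrilysin of injured epithelium, read -5.06 and -0.83, a difference of 4.23. Timp1, an inhibitor of matrix metalloproteases, read -0.65 and 3.52, with a difference of at least 4.80 by its other probe. Plaur, the receptor of urokinase, read -1.17 and 2.35, and its other probe gave 2.51. Adamts1, a secreted protease that cleaves proteoglycans, read 1.57 and 4.64. Timp3, the inhibitor bound to matrix, was lower at -1.43. Of 23 collagen and matrix genes 8 were higher and 2 lower, and their median was 0.54. Col3a1 and Col1a1, fibrillar collagens, stood at 1.86 and 1.39, and Col4a3, a chain of the glomerular basement membrane, at -1.50. The other probes gave 1.04 and 1.58 for Col3a1 and 1.58 and 2.71 for Col1a1. Ccn1, a matricellular target of mechanical and YAP signals, differed by 3.59 and Ccn2 by 1.59.

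Promoter sequences from RefSeq (GRCm38.p6) were searched on both strands, over 250 bases before to 50 after each start, for the AP-1 motif TGACTCA. It occurred in 6.39% of 501 genes at least 4-fold higher, 5.26% of 399 genes at least 4-fold lower and 3.84% of all 12762 described genes with a window. The TATA box TATAAA lay in 14.6% of the promoters of genes at least 4-fold higher, 15.5% of those at least 4-fold lower and 9.62% of all. The NRF2 element TGACNNNGC lay in 80 of 501, 48 of 399 and 14.1% of all, the CREB site TGACGTCA in 14, 4 and 2.82%, and the HNF4 site CAAAGTCCA in 3, 6 and 0.462%. Of 10 matrix protease genes with a window 4 held the AP-1 motif, namely Mmp3, Mmp7, Mmp10 and Plaur. All 4 were at least 2-fold higher, in a list where 10 of 16 described genes were. Mmp10 was above background in injured kidney alone. Its bound of 1.04 was under 2-fold with quantile normalization (0.75) and cyclic loess (0.58). A match describes letters in this window and not binding. The stretch upstream of Mmp7 is printed because this gene differed most among the 4, by 4.23 against 3.51 for Plaur. The motif is in capitals, 5′ to 3′ on the strand of the gene.
Mmp7, chr9:7691982-7692081 (+): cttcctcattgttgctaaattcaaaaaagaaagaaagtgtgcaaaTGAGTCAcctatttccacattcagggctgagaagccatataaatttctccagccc

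Cell cycle genes were higher from replication to mitosis. Of 22 DNA replication genes 18 were at least 2-fold higher and none lower, with a median of 1.69. All 6 subunits of the MCM helicase, which opens replication origins, were at least 2-fold higher, from 1.19 for Mcm6 to 3.23 for Mcm3. Uhrf1, which copies DNA methylation after replication, read -1.30 and 2.86, and its other probe gave 4.35. Rrm2, a subunit of ribonucleotide reductase, read -2.25 and 1.43, and the G1 cyclin gene Ccne1 read -1.74 and 2.04, with a difference of 1.42 by its other probe. Of 24 mitosis genes 19 were higher and none lower, with a median of 1.86. Cenph, a kinetochore protein, read -4.04 and -0.24, and both its probes gave 3.74 or more. Top2a, the topoisomerase of chromosome condensation, differed by 2.88, and Mki67, the proliferation marker Ki-67, by 1.96 by a repeat probe and 2.94 by the other. The mitotic cyclins Ccnb1 and Ccnb2 stood at 0.59 and 0.57, and the other Ccnb1 probes gave 0.65 and 1.40. Cip2a, an inhibitor of the phosphatase PP2A, was not above background in sham and was at least 52.5-fold higher by its brightest probe, and its other probe gave a difference of at least 1.88.

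Among E2F factors, which control the entry into S phase, 5 of 8 were at least 2-fold higher. E2f8 read -5.03 and -1.32, E2f7 was at least 15.5-fold higher (a difference of at least 2.15 by its other probe), and E2f1 differed by 2.43, while E2f4 stood at 0.53. The cell cycle brake Cdkn1a, the inhibitor p21, read -1.44 and 1.90, a difference of 3.34. Other targets of p53 were mixed, with Gtse1 at 3.04, Mdm2 at -0.22 and Ccng1 at -0.57. The other probes of Mdm2 and Ccng1 had the opposite sign, at 0.73 and 0.78. Of 21 genes of p53 and arrest 8 were higher and 3 lower. Mlkl, the executor of necroptosis, read -3.05 and -0.18, and its kinase Ripk3 differed by 1.71 and Casp8 by 1.71. In the list of apoptosis and necroptosis 5 of 20 genes were higher and 1 lower.

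The E2F motif, searched as TTTCGCGC and TTTGGCGC, was found in 9 of the 501 genes at least 4-fold higher, 5 of the 399 at least 4-fold lower and 1.37% of all. In the DNA replication list it occurred in 7 of 19 genes with a window, which were Mcm3, Mcm5, Mcm6, Mcm7, Pola1, Cdt1 and Rfc3, and 5 of these 7 were at least 2-fold higher. In the mitosis list the motif occurred in 1 of 20 genes with a window, the kinase gene Cdk1. The first of the 3 stretches below holds overlapping matches on both strands. They are shown because their genes span replication and mitosis, with Mcm5 at 1.8, Mcm6 at 1.19 and the mitotic kinase Cdk1 at 2.33.
Mcm5, chr8:75109315-75109414 (+): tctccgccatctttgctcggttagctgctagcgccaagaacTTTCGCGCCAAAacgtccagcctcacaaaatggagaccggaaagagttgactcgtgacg
Mcm6, chr1:128359706-128359805 (-): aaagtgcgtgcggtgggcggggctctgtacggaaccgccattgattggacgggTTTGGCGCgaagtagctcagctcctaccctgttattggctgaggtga
Cdk1, chr10:69352989-69353088 (-): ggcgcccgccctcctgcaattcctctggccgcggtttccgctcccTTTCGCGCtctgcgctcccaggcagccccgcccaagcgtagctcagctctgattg

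Genes that defend against metals and oxidants were higher in part. Mt2, a metallothionein that binds zinc and copper, read 4.64 in sham and 9.07 in injured kidney, a difference of 4.43. Mt1, the other main metallothionein, differed by 3.18, and by 1.93 in its other probe. Among targets of the oxidant response factor NRF2, the heme-degrading enzyme Hmox1 stood at 3.04 (1.28 by its other probe), the quinone reductase Nqo1 at 2.81 and the glutathione-synthesis gene Gclc at 1.81. Srxn1, which repairs oxidised peroxiredoxins, read 2.69 and 5.57 by a repeat probe, and its others gave 2.0 and 2.81, and the thioredoxin reductase Txnrd1 differed by 1.96. Cbr3, a carbonyl reductase, read -0.66 and 3.92, a difference of 4.58. Of 23 genes in the NRF2 and glutathione list 11 were higher and 3 lower, with a median of 0.94. The 3 lower genes were enzymes that remove peroxide or superoxide, Gpx1 at -2.04, Sod2 at -1.10 and Cat at -1.01. The transcript of NRF2 itself, Nfe2l2, stood at 0.15.

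Genes of the proximal tubule were the nephron group that stood lowest against wild type sham. Of 16 genes of its early part 14 were at least 2-fold lower and none higher, with a median of -2.43. Of 13 genes of its straight part 9 were lower and none higher, with a median of -1.88, or -0.82 with the sham array labelled NLRC5-/- as reference. In whole kidney fewer proximal tubule cells and less RNA per cell cannot be told apart, and this holds for every cell type below. Slc34a3, a sodium-phosphate cotransporter, read 4.91 in sham and -2.37 in injured kidney, 155-fold lower. Slc34a1, the main phosphate transporter of the brush border, read 7.86 and 3.99. Slc34a2, the cotransporter of lung and gut, and Slc20a1, the ubiquitous one, were higher by 1.95 and 2.07, and by 3.31 and 0.89 in their other probes. Kl, the co-receptor of the phosphate hormone FGF23, read 5.18 and 2.56, a difference of -2.62, with -1.63 by its other probe. Of 19 genes of phosphate, sulfate and bicarbonate transport 2 were higher and 10 lower, with a median of -1.17, which was -0.82 by the median over probes and -0.91 with the sham array labelled NLRC5-/- as reference.

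Other uptake systems of the proximal tubule were lower as well. Slc5a2, the glucose transporter SGLT2, read 5.05 and 1.43. Slc6a19, the carrier of neutral amino acids, read 2.23 and -2.18, and Slc7a13, a carrier of acidic amino acids in the straight part, read 4.86 and -0.23. Gatm, the first enzyme of creatine synthesis, read 5.60 and 0.86. The endocytic receptors Lrp2 and Cubn stood at -1.02 and -1.44 by their brightest probes, and the water channel Aqp1 stood at -2.30. The other Lrp2 probes ranged from -2.78 to -0.92. Car4, the carbonic anhydrase of the brush border, differed by -4.16. The organic anion transporters were split, since Slc22a8 stood at -2.90, with other probes at -4.16 and -3.77, while Slc22a6 read 6.43 and 6.62, a difference of 0.20. Slc22a6 was 1 of 2 members of the early list within 2-fold. Of 22 described Slc22a genes 10 were at least 2-fold lower and 2 higher.

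Against wild type sham the nephron beyond the proximal tubule showed smaller medians, in the order of its segments. Thick ascending limb genes had a median of -1.44 with 9 of 13 lower, distal convoluted and connecting tubule genes -0.85 with 5 of 12 lower, principal cell genes -0.39 and intercalated cell genes -0.08. Against the sham array labelled NLRC5-/-, without bounds, these medians were -1.85, -1.39, -0.32 and -0.42. There the early proximal part stood at -2.25 and the straight part at -0.82, so this order did not hold. Slc12a1, the loop diuretic target NKCC2, read 4.82 and 1.77, a difference of -3.05, and its other probe gave -1.24. Umod, the most abundant urinary protein of the same segment, read 8.13 and 7.46, a difference of -0.66. In the thick ascending limb list Tmem207 stood at -3.89. Calb1, a calcium buffer of the connecting tubule read by a repeat probe, stood at -2.20, and the thiazide target Slc12a3 at -0.75. In principal cells Aqp2, the water channel set by vasopressin, stood at -1.06, and Fxyd4, a regulator of the sodium pump, at 1.05. Aqp4 stood at -2.55 by its brightest probe, with the others from -2.90 to 1.83. Of 14 intercalated cell genes 13 lay within 2-fold, among them Slc26a4 (pendrin) at 0.36, and Foxi1, the factor that specifies these cells, was 1.19 higher.

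**Figure D4:**
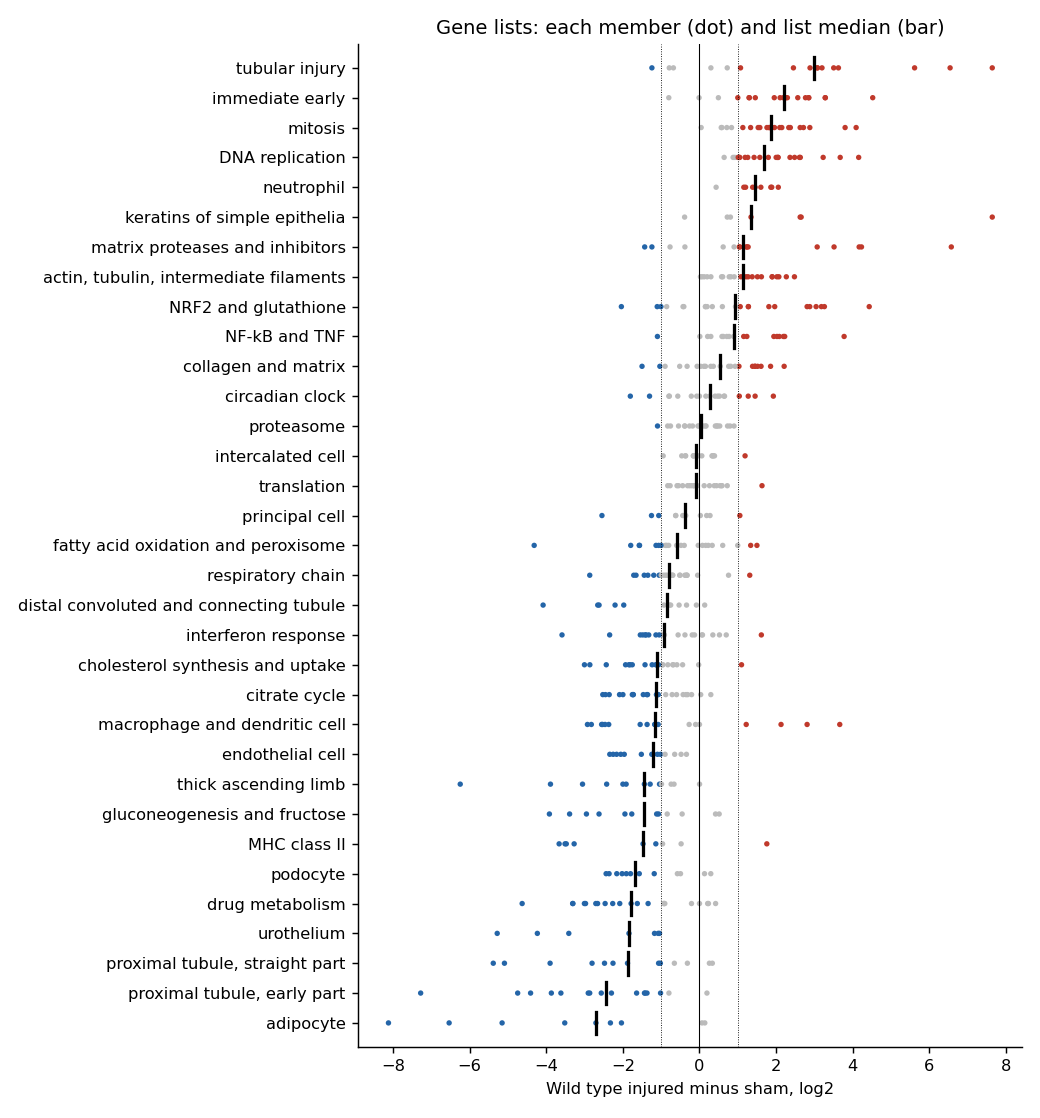
Difference between injured and sham wild type kidney (log2, horizontal axis) for the members of 33 gene lists, with each gene as a dot and the list median as a bar. Red and blue dots are at least 2-fold higher and lower, grey dots lie within 2-fold (dotted lines), and genes not above background on 1 array are drawn at their bound. Tubular injury, immediate early and cell cycle lists lie to the right, and proximal tubule, adipocyte and metabolic lists to the left.

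Metabolic genes of the kidney cortex were lower across several pathways. Of 12 genes of gluconeogenesis and fructose use 8 were lower and none higher, with a median of -1.44 (-1.95 without repeat probes). G6pc, which releases glucose, read 5.17 and 1.25, and Fbp1, the gluconeogenic bisphosphatase, read 7.92 and 4.97. Slc2a2 and Slc2a5, which carry glucose and fructose, stood at -2.62 and -3.39, whereas Slc2a1, the glucose transporter of growing cells, stood at 1.56. The other Slc2a2 probe gave -0.56. Hk2, the inducible hexokinase, differed by 2.09, and Gapdh by 0.09. Of 22 glycolysis genes 5 were higher and 3 lower, with a median of 0.12.

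Of 23 genes of the citrate cycle 14 were lower and none higher, with a median of -1.12, or -0.90 with the sham array labelled NLRC5-/- as reference. Sdhb, the iron-sulfur subunit of succinate dehydrogenase, read 4.90 and 2.37. Idh2 and Suclg1 stood at -2.45 and -2.36, while Cs, citrate synthase, stood at 0.03. Respiratory chain genes had a median of -0.79, with 7 of 25 lower and 1 higher. Fatty acid oxidation was uneven, with 7 of 23 genes lower and 2 higher. There Acadm, the medium-chain dehydrogenase, stood at -1.57 and Hao2, a peroxisomal oxidase, at -4.32. Acaa1b, a peroxisomal thiolase, was higher at 1.5.

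Amino acid metabolism had a median of -1.25 (-1.66 without repeat probes), with 18 of 29 genes lower and 5 higher. Ass1, which makes the arginine precursor argininosuccinate, read 7.04 and 3.17, and its other probe gave -3.76. Cholesterol synthesis and uptake was lower in 12 of 21 genes and higher in 1, with Cyp51, the lanosterol demethylase, at -3.0 and -3.17 to -2.21 by its other probes. The receptor Scarb1 was the higher gene, at 1.10. Drug metabolism genes had a median of -1.78 (-2.08 without repeat probes), with 13 of 21 lower and none higher. Cyp2e1, a cytochrome P450 of ethanol and solvent metabolism, read 4.70 and 0.07, and Cyp2d26 read 6.67 and 0.75. With the sham array labelled NLRC5-/- in place of wild type sham, the cholesterol median was -0.69, against -1.12, the drug metabolism median was -0.32 and Cyp2e1 stood at -0.84. Of 6 Cyp2d genes 5 were at least 2-fold lower, and of 7 Hsd3b genes, which oxidise steroids, 6 were. Inmt, an indole methyltransferase, differed by -5.28, Akr1c21, a hydroxysteroid dehydrogenase, by -4.65, and Fam151a, an uncharacterised kidney gene, by -6.43. Clec2h, a C-type lectin, read 3.76 and -2.96, with -5.81 by its other probe, and the glycogen synthase gene Gys2 read 2.37 and -2.93. Of 19 genes of vitamin A, D and steroid metabolism 3 were higher and 7 lower. The retinoic acid synthases Aldh1a2 and Aldh1a3 stood at 2.47 and -4.07, and the degrading enzyme Cyp26b1 at -3.52. With the sham array labelled NLRC5-/- as reference Aldh1a3 stood at -0.75. Another Aldh1a3 probe was dim in sham and not above background in injured kidney.

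Podocytes and endothelium also stood lower. Of 12 podocyte genes 8 were at least 2-fold lower and none higher, with a median of -1.69. Nphs1, the slit diaphragm protein nephrin, stood at -1.80. With normexp background correction the podocyte median was -0.58. Of 14 endothelial genes 10 were lower and none higher, with a median of -1.22, or -0.93 with normexp. Kdr, the main VEGF receptor, read 2.21 and 0.05, and Plvap, of fenestrated capillaries, read 3.26 and 0.92. Emcn, a sialomucin of capillaries, differed by -2.25, while Pecam1 stood at -0.48. The ligand Vegfa stood at -1.48, with its other probes from -1.27 to 0.33, and Angpt2, which destabilises vessels, at -3.39. In the renin-angiotensin system Ren1, the renin gene, and Agtr1a, the angiotensin receptor, were lower, at -3.10 and -2.55. The other probes of Ren1 and Agtr1a gave -1.83 and -0.27. The endothelin gene Edn1 and the cyclooxygenase gene Ptgs2 were higher, at 1.81 and 1.91.

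Of 9 neutrophil genes described 8 were at least 2-fold higher, with a median of 1.45. Above background in injured kidney alone were 5 of the 9, which could not be counted as lower. The neutrophil genes measured on both arrays were S100a8, S100a9 and Retnlg, each at least 2-fold higher, and Mpo, within 2-fold. Of 18 macrophage and dendritic cell genes 4 were higher and 11 lower. Among these 18, 4 were above background in sham alone and could not be counted as higher, and 1 in injured alone. With the sham array labelled NLRC5-/- as reference the neutrophil median was 0.84, and S100a8, S100a9 and Retnlg stood at 0.87, 0.86 and 0.82. The summed level, which the brightest probes dominate, was 4.95 times the 75th percentile signal in sham and 13.1 times it in injured kidney. Elane, Csf3r, Ngp, Camp and Mmp9, the other 5 of the 14 markers, were not above background on either array. S100a9 and S100a8, the calprotectin subunits, read 1.76 and 0.12 in sham and 3.21 and 1.32 in injured kidney. Mpo, the granule enzyme, stood at 0.43 by a repeat probe. Among macrophage genes Chil3, a chitinase-like protein of alternative activation, read -1.68 and 1.98, Cd68 read -3.51 and -0.70, and Cd14 read -0.85 and 1.28. Adgre1 (F4/80) and C1qa, which mark resident macrophages, stood at -2.82 and -2.93, and Mrc1 was at least 5.17-fold lower. The median of the macrophage and dendritic cell list was -1.17, against -0.91 with the sham array labelled NLRC5-/- as reference and -0.90 by the median over probes. With normexp it was -0.07, and Adgre1 and C1qa stood at -0.73 and -0.75.

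Antigen presentation by MHC class II was lower. Cd74, the invariant chain, read 2.75 and -0.75, and H2-Ab1 read 2.48 and -0.80, with its 3 other probes from -2.91 to -2.47. Of 9 genes of the class II list 6 were lower and 1, read by a repeat probe, was higher. Of the 9, 2 were above background in sham alone and 1 in injured alone. The median was -1.47 (-2.37 without repeat probes), and -0.64 with normexp. Class I genes lay near all genes, with 1 of 17 higher, 1 lower and a median of -0.36. B2m, the shared light chain, stood at -1.66, with other probes at -1.78 and -0.33, and Psmb10, a subunit of the immunoproteasome, at 1.02. Nlrc5, which controls class I genes, read -4.05 and -3.30, a difference of 0.74. Ceacam1, an adhesion receptor that the study title names, stood at -1.23, with its other probes from -0.79 to -0.36. Of 21 genes of the interferon response 9 were lower and 1 higher, and their median was -0.92. Rsad2, an antiviral enzyme, read 0.23 and -3.35, a difference of -3.59, with other probes at -2.80 and -1.16. Ddx58, the RNA sensor RIG-I, was the higher gene at 1.62 with other probes from 0.00 to 1.03.

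Of 10 CXC chemokines 3 were higher and 1 lower, and of 14 CC chemokines 2 were higher and 6 lower. Above background in sham alone, and so not open to being counted as higher, were 2 of the CXC and 5 of the CC genes. In injured kidney alone 1 CXC and 1 CC gene were above background. Cxcl1, the neutrophil attractant, read -2.54 and 1.92, by a repeat probe without another to set beside it. Cxcl17 and Ccl20 were at least 10.4-fold and 4.67-fold higher, Ccl2 stood at 0.38, and Cxcl9, induced by interferon gamma, was at least 6.16-fold lower. Il1rn, the antagonist of the interleukin-1 receptor, was at least 5.37-fold higher, while Il1b and Nlrp3 stood at -0.21 and 0.17. Nlrp6, an epithelial NOD-like receptor, read 3.12 and 0.34, and its other probe gave -3.55. Of 17 genes of the NF-kB and TNF list 8 were higher and 1 lower, with a median of 0.89 (1.15 without repeat probes), Nfkb2 at 2.08 and Icam1 at 1.94 (1.0 by its other probe). Stat3, the factor downstream of interleukin-6 cytokines, read 2.74 and 4.73, and its other probe gave 2.14. The fibrinogen chains, which Stat3 is known to induce, were all higher, with Fgb at 3.11, Fgg at 2.87 and Fga at 2.27.

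Transcripts of tissues around the kidney differed between the arrays too, and their part in the results was not tested. Cfd, the adipocyte protease adipsin, read 4.17 and -3.95, the largest decrease among genes above background on both arrays. Cidea differed by -6.54, Adipoq was at least 35.6-fold lower, and 7 of 9 adipocyte genes were at least 2-fold lower. Of the 9 adipocyte genes 2 were above background in sham alone. On the sham array labelled NLRC5-/-, which gave signal for Xist and not for the Y-linked genes, Cfd read -2.94 and Cidea -3.67, near the injured wild type levels. The summed adipocyte level was 96.5 in wild type sham, 28.5 in wild type injured and 37.7 in the sham array labelled NLRC5-/-. All 7 urothelium genes were lower, with a median of -1.84 (-2.62 without repeat probes, -0.92 with normexp and -0.67 with the sham array labelled NLRC5-/- as reference) and Upk3a, a protein of the bladder and pelvis lining, at least 38.9-fold lower. Of these 7 genes 4 were above background in sham alone and could not be counted as higher. Of 14 immunoglobulin and J chain genes 4 were lower and none higher, with Jchain lower by a bound of -4.24 (-2.91 by its other probe), Ighm at -2.83 and Igh-VJ558 at -5.82 by its brightest probe, and the probes of Igh-VJ558 ranged from -5.28 to 0.48 otherwise. The globin gene Hba-a1 read 1.86 and -0.19, and 4.92 on the sham array labelled NLRC5-/-. With the sham array labelled NLRC5-/- as the reference the adipocyte median was -0.10, against -2.70. Of 3 adrenal cortex genes none was 2-fold higher or lower, and of 7 skeletal muscle genes 2 were higher and 1 lower.

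Of 12 mural cell and fibroblast genes 3 were lower and none higher, namely Dcn, the proteoglycan decorin, at -2.88, Lum, lumican, at least 9.41-fold lower, and Itga8, an integrin of mesangium, at -2.32. Acta2, the smooth muscle actin, stood at 0.57, with other probes from 0.50 to 1.31. Of 13 lymphocyte genes 4 were lower and none higher, among them Cd79b, of the B cell receptor, at -2.12, and the median was -0.01. Of the 13, 5 were above background in sham alone and could not be counted as higher.

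Among transcription factors of the nephron and of repair 12 of 28 were higher and 3 lower, with a median of 0.29 (-0.07 without repeat probes). Cebpb, a factor of the acute phase, read 2.04 and 3.83, and Cebpd differed by 2.41 by a repeat probe. Foxm1, which drives mitotic genes, differed by 1.92, Sox4 by 1.5 and Pax8, a factor of the embryonic nephron, by 1.31 by a repeat probe and 1.54 by the other. Hnf4a, which holds the proximal tubule program, stood at -1.06, and the nuclear receptor Esrrb at -1.69. The other Hnf4a probes ranged from -1.35 to 0.45. Of 20 ribosome biogenesis genes 5 were higher and none lower, with Rrp12 at 2.79 and Ddx21 at 2.06. The other Ddx21 probes gave 0.40 and 1.95.

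Several other lists had medians within 2-fold. Of 21 proteasome genes none was 2-fold higher and 1 was lower, with a median of 0.04. Translation genes had a median of -0.10, hypoxia genes 0.03, Wnt and Notch genes 0.03 and unfolded protein and heat shock genes 0.17. In the TGF-beta, BMP and CCN list 5 of 24 genes were higher and none lower, with a median of 0.23, and in the RNA splicing list 5 of 21 were higher and none lower, with a median of 0.43. Lysosome and autophagy genes had a median of -0.52 with 6 of 22 lower and 1 higher. Among clock genes 4 of 19 were higher and 2 lower. Arntl, the activator BMAL1, stood at -1.81, and its repressor Nr1d1 at 1.04 by its brightest probe, with others at -0.81 and 0.24.

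A few of these genes stood on the other side of sham in the arrays labelled NLRC5-/-. Abcc3, an efflux pump of conjugates, read -1.92 and 0.88 in wild type sham and injured kidney, and 1.22 and -1.22 in the arrays labelled NLRC5-/-. With the sham array labelled NLRC5-/- as reference Edn1 (0.33), Foxi1 (0.05), Cebpd (0.69), Ddx58 (0.57), Slc2a1 (0.89), Cat (-0.39), Hnf4a (-0.38) and Timp3 (-0.86) were no longer 2-fold apart. The same held for Aldh1a3 (-0.75), Ccn2 (0.90), Clec5a (0.73 by its repeat probe), Psmb10 (0.49), Cxcl9 (-0.71), Nr1d1 (0.71), Fxyd4 (0.89) and Sod2 (-0.98). The mitosis list had medians of 1.86 in wild type and 3.51 in the arrays labelled NLRC5-/-. The difference between the genotypes was not tested.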

How the data were processed

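Kidney RNA was read on 4 one-colour Agilent arrays, of which the 2 wild type arrays are compared here. The deposited intensity values were scanned, background-subtracted and detrended within each array with Agilent Feature Extraction, for which per the file headers the version was 10.7.3.1, while the submitters' processing notes give 9.1. The authors' deposited log2 value table, brought to nearly the same distribution by a method not given in the sources used here, served as an alternative. From the intensities, non-control spots were averaged per probe and log2 values taken minus each array's 75th percentile. Probes well above background on at least 1 of the 2 arrays were kept, and each gene was read by its brightest probe over 4 arrays. A difference of 1 (2-fold) was counted. With 1 array per group no test was made, so precision is limited by how few arrays there are.

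Probe coordinates are mm9, as in the files. Names were updated through RefSeq tables: of the probes 27753 matched by accession, 5533 by symbol and 460 by synonym, 861 kept the file's name and 6567 had none. Alternatives were other scalings, quantile, cyclic loess, normexp (offset 50, limma 3.58.1, R 4.3.3), filters, probe rules and the other sham array as reference. Leaving out purine-repeat probes and scaling to spike-ins were added after seeing the data. Python 3.11.15 with pandas 2.3.3 did the rest, and the counting was tested on simulated data. The members and gene lists were chosen with earlier results of these data known. Named genes are a selection of the largest differences, the largest bounds and the 4 largest of each list, plus list members named after their values were seen. Some genes and sequences that these rules select are not reported here.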

Additional observations from a re-analysis of the deposited data

Results flagged for a closer look

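Some genes stood at least 2-fold from sham in opposite directions in the 2 pairs of arrays. The difference between the pairs was not tested, each group held 1 array, and the sham array labelled NLRC5-/- gave signal for Xist and not for Y-linked genes, unlike the other 3.

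Slc7a13, a carrier of acidic amino acids, differed by -5.09 in wild type and by 1.48 in the arrays labelled NLRC5-/-. Cyp2e1, the ethanol-metabolising cytochrome, differed by -4.63 and 1.07. The efflux pump gene Abcc3 differed by 2.80 and -2.45, and the kallikrein gene Klk1b11 by 3.63 and -1.13.

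Among immune transcripts the calprotectin genes S100a8 and S100a9 differed by 1.20 and 1.45 in wild type and by -1.25 and -1.10 in the other pair, and the neutrophil gene Retnlg by 2.06 and -1.61. The chemokine gene Cxcl9 stood at -2.62 or lower in wild type and at 1.75 in the other pair. The plasma cell genes Jchain and Igh-VJ558 differed by -4.24, a bound, and -5.82 in wild type and by 1.26 and 1.61 in the other pair.

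The 8 adenoviral spike-in controls, which no comparison of the study uses, had a median difference of 0.575 between wild type injured and sham before scaling. The corresponding values against wild type sham were 0.53 for the sham array and 0.52 for the injured array labelled NLRC5-/-.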

How the results depend on the processing

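No paired analysis was possible because each group held 1 array. The counts of 2393 higher and 2091 lower genes stayed within 1.5 times of themselves except that normexp background correction gave 1339 lower genes, spike-in scaling 258 higher and 13826 lower, a 4-fold threshold 685 and 523. Leaving out the filter gave 3364 higher genes. All 24 lists with a median of at least 2-fold kept their direction under every setting other than spike-in scaling, and 17 were still 2-fold with normexp and 15 with the sham array labelled NLRC5-/- as reference. Under spike-in scaling the medians of keratins (-0.57), cytoskeleton (-0.77), matrix proteases (-0.66), DNA replication (-0.22) and mitosis (-0.050) changed sign. The neutrophil median was then 0.0 and the immediate early median 0.30.

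Of 206 named genes at least 2-fold apart, 192 were still 2-fold with normexp. With the sham array labelled NLRC5-/- as reference 183 of 205 were. The direction changed for Lifr, at -0.19 by the median over probes and -2.28 without repeat probes, for Anxa7, at -0.12 without repeat probes, and for Abcc3, at -0.35 against the sham array labelled NLRC5-/-. The cause was not tested. Dim genes are limited by the signal over background: with normexp Mrc1 stood at -0.06, Cxcl9 at -0.37, Cd79b at -0.41 and Lum at -0.76.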
